A study of Caenorhabditis elegans with 6 samples.

Results

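The body-shape collagens described here are 10 genes, rol-6, sqt-1, sqt-3, dpy-17, dpy-7, dpy-10, dpy-13, bli-1, bli-2 and lon-3, taken by name from a fixed list and matched to 10 of the 46778 gene identifiers in the count tables. Each encodes a collagen of the cuticle, the extracellular matrix that the epidermis of Caenorhabditis elegans secretes around the animal and replaces at every moult. Cuticle collagens are secreted as trimers, and their genes are transcribed in waves that rise and decline within each moulting cycle, so that collagens of one cuticle layer tend to peak together. The genes carry the names of their mutant phenotypes: Dumpy animals are short and stout, Squat and Roller animals are short or twist about their long axis, Blistered animals carry fluid-filled swellings of the cuticle, and Long animals are longer than wild type.

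RNA was sequenced from whole animals at L4, the last larval stage, in 6 libraries that form 3 groups of 2. UM10 carries aex-3p::αsynA53T, a transgene for the A53T form of human alpha-synuclein, known from inherited Parkinson's disease, under the neuronal promoter of aex-3, and N2 is the wild-type strain without it. UM10 was raised from the egg on csgA(-) bacteria, which lack CsgA, the main curli protein, or on their K12 parent BW25113, and N2 was raised on K12. The study asked how the transgenic strain differs from wild type and whether the bacterial food alters it. N2 on csgA(-) bacteria was not analysed here, and neither was the human transgene itself. No label says whether replicates came from separate cultures, so p-values measure the spread between these libraries, which may be technical.

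Groups follow the sample titles. For the 4 UM10 libraries the file names swap the 2 foods relative to the titles, and the title of N2 says only WT, read here as K12. If the file names are the correct ones, each food difference below has the opposite sign, whereas the comparison of all UM10 libraries with N2 would stay as it is. Gene counts per library ranged from 22657727 to 23532382. N2 replicate 1 stood apart in composition, with a TMM scaling factor (trimmed mean of M values) of 0.610, against 1.015 to 1.199 in the other 5 libraries. Levels are TMM-scaled CPM, that is, counts scaled to a common library total.

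Body-shape collagen transcripts were lower in UM10, pooled over its 2 foods, than in N2. All N2 libraries were on K12, so strain and food differ together for UM10 on csgA(-), and in part for the pooled comparison. In UM10 on K12 against N2 edgeR called 0 of the 10 genes. Summed over the 10 genes, the level was 2705 and 1367 CPM in UM10 on csgA(-), 2677 and 2546 CPM in UM10 on K12 and 6899 and 6904 CPM in N2, so that every UM10 library lay below both N2 libraries. As a share of gene counts, without TMM factors, the sum was 0.281% and 0.153%, 0.321% and 0.294%, and 0.42% and 0.701% in the same order. The order of the strains held, but the N2 libraries were then not alike. In all UM10 against N2, 5 of the 10 genes were called lower and 0 higher by edgeR's quasi-likelihood test (Benjamini-Hochberg adjusted p under 0.05). Of the 15331 genes tested, 5.25% were called lower and 5.07% higher. The called genes were lon-3, bli-1, bli-2, sqt-3 and dpy-7. Their number was 1 (lon-3) without N2 replicate 1 or UM10 K12 replicate 1, 2 without replicate 2 of either UM10 group, 3 without N2 replicate 2, and 9 with DESeq2, which called 9.16% of all genes lower. In 8 of the 10 genes all UM10 libraries were below both N2 libraries, where 16.2% of all genes were so, and 9 of the 10 were lower at an unadjusted p under 0.05, where 13.4% of all genes were. Without TMM factors the strains overlapped for rol-6, dpy-7, bli-1 and bli-2. The median log2 fold change of the 10 genes was -1.57, beside -0.04 for all genes tested. In whole-animal RNA, a smaller epidermal share of the RNA and less collagen RNA per epidermal cell cannot be told apart.

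The single groups gave different counts. In UM10 on csgA(-) against N2, 6 of 10 genes were called lower (lon-3, bli-2, bli-1, dpy-7, dpy-10 and rol-6), where 5.11% of all genes were called lower, and 0 were called higher, where 3.95% were. All but dpy-17 had libraries below both N2 libraries, 9 of 10 genes where 26.5% of all genes were so. The median log2 fold change was -2.04, beside 0.07 for all genes. The number called was 3 without N2 replicate 1, 1 without UM10 csgA(-) replicate 2 and 9 with DESeq2, which called 10.2% of all genes lower. In UM10 on K12 against N2, edgeR called 0 of 10, where 0.541% of all genes were called lower and 2.20% higher, and the median was -1.13, beside -0.09. In 8 of the 10 genes both UM10 libraries on K12 were below both N2 libraries, where 24.5% of all genes were so. Without TMM factors rol-6, dpy-7, bli-1 and bli-2 overlapped here too. With unadjusted p under 0.05, 4 of the 10 were lower, where 7.17% of all genes were, and DESeq2 called 4 lower, where it called 2.70% of all genes lower. Both comparisons use the same N2 libraries, and the difference between them is the food comparison within UM10, in which edgeR called 0 of the 10 genes and 0% of all genes.

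**Figure D1:**
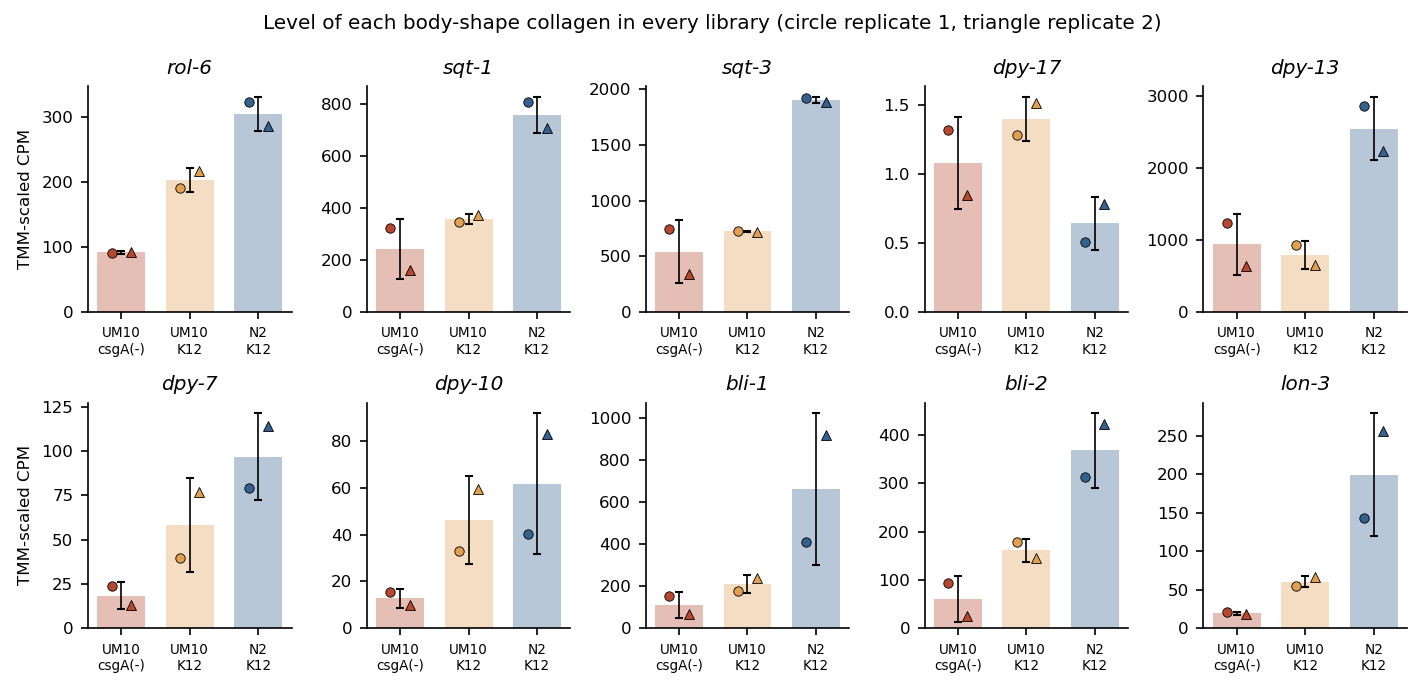
Level of each body-shape collagen in TMM-scaled CPM (vertical axes, each from 0 and with its own range) in UM10 on csgA(-), UM10 on K12 and N2 on K12. Bars are means of 2 libraries, whiskers the SD, circles replicate 1 and triangles replicate 2. In 8 of the 10 genes all 4 UM10 libraries sit below both N2 libraries. The exceptions are dpy-10, whose groups overlap, and dpy-17, whose N2 libraries are the lowest.

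The first pair of genes, rol-6 and sqt-1, act together in setting the helical organisation of the cuticle, and particular alleles of either make the animal roll. Transcripts of rol-6 (chromosome II, 8733050 to 8734239) stood at 90.1 and 93.0 CPM in UM10 on csgA(-), 190.2 and 216 CPM in UM10 on K12 and 324 and 286 CPM in N2. At these TMM-scaled levels the 3 groups formed 3 separate steps with close replicates. Without TMM factors N2 was at 197.3 and 290.6 CPM and UM10 on K12 at 228 and 249.7 CPM, which overlapped. The gene fell in UM10 on csgA(-) against N2, by 1.74 on the log2 scale (standard error, SE, 0.42; edgeR adjusted p = 0.0301), a level 3.33-fold lower. That call was lost without N2 replicate 1 (adjusted p = 0.0702) and without replicate 1 or 2 of UM10 on csgA(-) (adjusted p = 0.183 and 0.115), although the log2 fold change stayed between -1.84 and -1.75. For all UM10 against N2, rol-6 had a log2 fold change of -1.16 (SE 0.34), which missed the threshold (edgeR adjusted p = 0.0543). For UM10 on K12 against N2 it was -0.59 (SE 0.41, edgeR adjusted p = 0.458).

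Its partner sqt-1 (chromosome II, 11336693 to 11337837) was at 325 and 161 CPM in UM10 on csgA(-), 345 and 373 CPM in UM10 on K12 and 809 and 709 CPM in N2. All UM10 libraries were below both N2 libraries, and the UM10 groups differed mainly through replicate 2 on csgA(-). No comparison called it. The log2 fold change was -1.36 (SE 0.41) in all UM10 against N2 and -1.65 (SE 0.50) in UM10 on csgA(-) against N2, with edgeR adjusted p of 0.0572 and 0.0620. The CPM of sqt-1 over that of rol-6 within a library was 3.60 and 1.73 in UM10 on csgA(-), 1.82 and 1.73 in UM10 on K12 and 2.50 and 2.48 in N2, so this pair was not held at 1 ratio across groups.

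The collagen SQT-3 is cut by the astacin protease DPY-31 and depends on the collagen DPY-17 for its secretion. Its gene (chromosome V, 12352745 to 12354320) gave 741 and 340.1 CPM in UM10 on csgA(-), 729 and 719.8 CPM in UM10 on K12 and 1926 and 1886 CPM in N2. N2 and UM10 on K12 each had near-equal replicates and lay far apart, while replicate 2 of UM10 on csgA(-) was below the other 3 UM10 libraries. Without TMM factors N2 was at 1174 and 1915 CPM and UM10 on K12 at 873.5 and 830.6 CPM. The gene fell in all UM10 against N2, with a log2 fold change of -1.61 (SE 0.45, edgeR adjusted p = 0.0440), a level 3.05-fold lower. The call did not survive the loss of any library except N2 replicate 2. The adjusted p was then 0.109 without N2 replicate 1, 0.156 and 0.155 without replicate 1 or 2 of UM10 on K12, and 0.0650 and 0.143 without replicate 1 or 2 of UM10 on csgA(-), with log2 fold changes of -1.99 to -1.37. For UM10 on csgA(-) against N2 the log2 fold change was -1.82 (SE 0.55, edgeR adjusted p = 0.0608), and without N2 replicate 2 it was -1.84 with an adjusted p of 0.0476.

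Its secretion partner dpy-17 (chromosome III, 5107330 to 5108492) was close to absent from these libraries. It had 32 and 22 counts in UM10 on csgA(-), 35 and 41 in UM10 on K12 and 7 and 18 in N2, which is 1.315 and 0.845, 1.283 and 1.51, and 0.507 and 0.778 CPM in the same order. Its N2 libraries were the lowest, the opposite of the other 9 genes, and the groups of UM10 and N2 did not overlap. The log2 fold change in all UM10 against N2 was 0.91 (SE 0.59, edgeR adjusted p = 0.346), and no comparison called it.

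The furrow collagens DPY-7 and DPY-10 lie in the circumferential furrows that separate the annuli of the cuticle, and loss of either removes the furrows and leaves the animal dumpy. Transcripts of dpy-7 (chromosome X, 7536467 to 7537792) were at 23.75 and 12.98 CPM in UM10 on csgA(-), 39.5 and 76.85 CPM in UM10 on K12 and 79.45 and 114 CPM in N2. UM10 on csgA(-) was clear of both other groups, whereas the higher UM10 library on K12 came close to the lower N2 library. Without TMM factors that UM10 library, at 88.69 CPM, was above the lower N2 library, at 48.43 CPM. A fall of dpy-7 was called in UM10 on csgA(-) against N2, with a log2 fold change of -2.40 (SE 0.49, edgeR adjusted p = 0.0168), a level 5.27-fold lower. It also fell in all UM10 against N2, with a log2 fold change of -1.57 (SE 0.39, edgeR adjusted p = 0.0300), and in UM10 on K12 against N2 the value was -0.74 (SE 0.46, adjusted p = 0.407). For UM10 on csgA(-) alone the call was lost without N2 replicate 1 or UM10 csgA(-) replicate 2 (adjusted p = 0.0537 and 0.0649). For all UM10 it was lost without N2 replicate 1 or 2 (adjusted p = 0.0890 and 0.113), UM10 K12 replicate 1 (0.107) or UM10 csgA(-) replicate 2 (0.0605).

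Levels of dpy-10 (chromosome II, 6710149 to 6712227) moved almost in step with dpy-7. They were 15.65 and 9.98 CPM in UM10 on csgA(-), 33.0 and 59.5 CPM in UM10 on K12 and 40.4 and 82.9 CPM in N2. Here UM10 on K12 and N2 overlapped, and UM10 on csgA(-) lay below both. The gene fell in UM10 on csgA(-) against N2 with a log2 fold change of -2.27 (SE 0.49, edgeR adjusted p = 0.0210), a call lost without N2 replicate 2 (-1.67, adjusted p = 0.0676) or UM10 csgA(-) replicate 2 (-1.98, adjusted p = 0.0725). Over all UM10 against N2 it was -1.34 (SE 0.39, edgeR adjusted p = 0.0520). In UM10 on K12 against N2 it was -0.42 (SE 0.47, edgeR adjusted p = 0.665), the smallest difference among the 10 genes, and 0.19 without N2 replicate 2. The CPM of dpy-7 over that of dpy-10 stayed between 1.20 and 1.97 in all 6 libraries.

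The annulus collagen DPY-13 belongs to the ridges between the furrows. Its gene (chromosome IV, 4235614 to 4236710) gave 1239 and 635 CPM in UM10 on csgA(-), 927 and 649 CPM in UM10 on K12 and 2855 and 2231 CPM in N2. The range of UM10 on K12 lay within that of UM10 on csgA(-), and both groups were below N2. The log2 fold change was -1.57 (SE 0.46, edgeR adjusted p = 0.0527) in all UM10 against N2, -1.44 (SE 0.56, adjusted p = 0.122) for UM10 on csgA(-) and -1.69 (SE 0.57, adjusted p = 0.141) for UM10 on K12, so that no comparison called it. Without N2 replicate 2 the first of these was -1.74 with an adjusted p of 0.0326.

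The strut collagens BLI-1 and BLI-2 build the columns that join the layers of the adult cuticle, and their loss fills the space between the layers with fluid. Transcripts of bli-1 (chromosome II, 10708960 to 10712156) were at 155 and 69.0 CPM in UM10 on csgA(-), 179 and 239 CPM in UM10 on K12 and 408 and 915 CPM in N2. The N2 replicates differed 2.25-fold, yet both exceeded all UM10 libraries. Without TMM factors the lower N2 library, at 248.5 CPM, was below the higher UM10 library on K12, at 275.7 CPM. The log2 fold change was -2.11 (SE 0.46, edgeR adjusted p = 0.0192) in all UM10 against N2 and -2.56 (SE 0.59, adjusted p = 0.0244) for UM10 on csgA(-), a level 5.90-fold lower. For UM10 on K12 it was -1.66 (SE 0.57, edgeR adjusted p = 0.147). Without N2 replicate 2, the higher of the pair, the first 2 values were -1.42 (adjusted p = 0.0851) and -1.87 (adjusted p = 0.0594). The call for all UM10 was also lost without N2 replicate 1 (adjusted p = 0.0513) or UM10 K12 replicate 1 or 2 (0.0889 and 0.0600), and that for UM10 on csgA(-) without its replicate 1 or 2 (0.0523 and 0.112).

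The second strut gene, bli-2 (chromosome II, 5651394 to 5652434), was at 94.2 and 26.4 CPM in UM10 on csgA(-), 178 and 145 CPM in UM10 on K12 and 314 and 422 CPM in N2. The 3 groups did not overlap, and the replicates of UM10 on csgA(-) differed 3.57-fold, the widest replicate gap among the 10 genes. Without TMM factors N2, at 191.2 and 428.7 CPM, overlapped UM10 on K12, at 213.4 and 167.2 CPM. It fell in UM10 on csgA(-) against N2 (log2 fold change -2.61, SE 0.60, edgeR adjusted p = 0.0243), a level 6.10-fold lower, and in all UM10 against N2 (-1.90, SE 0.47, adjusted p = 0.0300). For UM10 on K12 against N2 the log2 fold change was -1.19 (SE 0.57, edgeR adjusted p = 0.284). Leaving out N2 replicate 1, N2 replicate 2 or UM10 csgA(-) replicate 2 ended the call for UM10 on csgA(-) (adjusted p = 0.0800, 0.0544 and 0.0941). For all UM10 the same 3 omissions gave 0.111, 0.0917 and 0.0548, and leaving out UM10 K12 replicate 1 or 2 gave 0.0943 and 0.0995.

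The last gene, lon-3, encodes a collagen whose loss makes animals long and whose excess makes them short, and it acts genetically downstream of the BMP-like ligand DBL-1. Its transcripts (chromosome V, 12197437 to 12198645) were at 20.95 and 18.35 CPM in UM10 on csgA(-), 55.4 and 66.1 CPM in UM10 on K12 and 143 and 256 CPM in N2. At these TMM-scaled levels the groups formed 3 steps with no overlap and with close replicates in UM10. Without TMM factors lon-3 was at 87.41 and 259.9 CPM in N2 and 66.46 and 76.28 CPM in UM10 on K12, close but without overlap. It had the lowest log2 fold change of the 10 genes in each comparison with N2: -3.34 (SE 0.46, edgeR adjusted p = 0.00620) for UM10 on csgA(-), a level 10.2-fold lower, -2.53 (SE 0.35, adjusted p = 0.00427) for all UM10, and -1.72 (SE 0.43, adjusted p = 0.0618) for UM10 on K12. For UM10 on csgA(-) against N2 it was called under all 13 alternatives run with groups from the titles, with log2 fold changes of -3.81 to -2.88 and adjusted p up to 0.0242. For all UM10 it was called under all 15, with -2.97 to -2.06 and adjusted p up to 0.0410. In neither comparison did another body-shape collagen keep its call under every one of these alternatives.

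**Figure D2:**
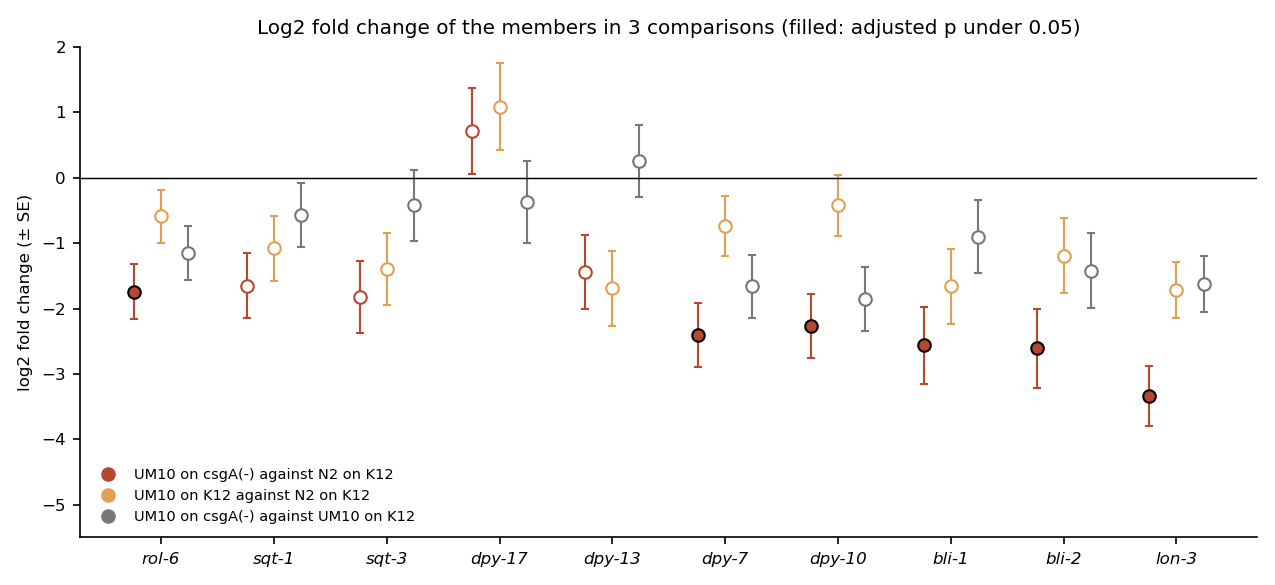
Log2 fold change with its SE (vertical axis) of each body-shape collagen (horizontal axis) for UM10 on csgA(-) against N2 on K12, UM10 on K12 against N2 on K12 and UM10 on csgA(-) against UM10 on K12. Filled points passed an edgeR adjusted p of 0.05. The 6 filled points all belong to UM10 on csgA(-) against N2, from rol-6 at -1.74 to lon-3 at -3.34. The 3 comparisons share libraries.

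The food comparison set UM10 on csgA(-) against UM10 on K12. Fold changes were negative for 9 of the 10 genes and positive for dpy-13, yet edgeR called 0 of the 10, and their smallest edgeR adjusted p was 0.242, for dpy-10. The median log2 fold change of the 10 genes was -1.02, beside 0.00 for all genes tested. With unadjusted p under 0.05, 5 of the 10 genes were lower, where 4.65% of all genes were lower and 9.92% differed in either direction. In 7 of the 10 both csgA(-) libraries were below both K12 libraries, where 19.0% of all genes were so. DESeq2 called 3 of the 10 genes lower, where it called 1.12% of all genes lower.

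Within this comparison the genes differed in size. The furrow genes dpy-10 and dpy-7 had log2 fold changes of -1.85 (SE 0.49) and -1.66 (SE 0.48), lon-3 -1.63 (SE 0.43), bli-2 -1.42 (SE 0.57) and rol-6 -1.15 (SE 0.42). Smaller values were seen for bli-1 at -0.90 (SE 0.56), sqt-1 at -0.57 (SE 0.49), sqt-3 at -0.42 (SE 0.54) and dpy-17 at -0.37 (SE 0.63). The annulus gene dpy-13 was at 0.25 (SE 0.55), and at -0.48 without UM10 csgA(-) replicate 1 and -0.11 without UM10 K12 replicate 2. Whether these fold changes differ from each other was not tested. The CPM of dpy-13 over that of dpy-7 within a library was 52.2 and 48.9 in UM10 on csgA(-), 23.5 and 8.44 in UM10 on K12 and 35.9 and 19.5 in N2.

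Compared per kb of exon, which allows levels of different genes to be set side by side, the order of the genes was similar in all groups. In N2, dpy-13 led with 2887 and 2256 CPM per kb, ahead of sqt-3 with 1354 and 1326 and sqt-1 with 775 and 679, and these 3 were clear of each other. Next came bli-2 at 316 and 425, rol-6 at 297 and 263, bli-1 at 135 and 304 and lon-3 at 128 and 228 CPM per kb, among which rol-6 and bli-1, and bli-1 and lon-3, overlapped. Then came dpy-7 at 69.3 and 99.6, dpy-10 at 25.4 and 52.1 and, far below, dpy-17 at 0.456 and 0.700 CPM per kb.

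Per kb, dpy-13 was the highest of the 10 genes in every library. Both UM10 groups kept dpy-13, sqt-3 and sqt-1 as the top 3 by mean level per kb and dpy-10 and dpy-17 as the lowest 2. In UM10 on csgA(-) rol-6, at 82.7 and 85.4 CPM per kb, overlapped bli-2, at 94.8 and 26.6, and lon-3, at 18.6 and 16.3, overlapped dpy-7, at 20.7 and 11.3. Of the summed CPM of the 10 genes, dpy-13, sqt-3 and sqt-1 made up 85.2% and 83.1% in UM10 on csgA(-), 74.7% and 68.4% in UM10 on K12 and 81.0% and 69.9% in N2. The shares of UM10 on csgA(-) were the highest, and those of the other groups overlapped.

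**Figure D3:**
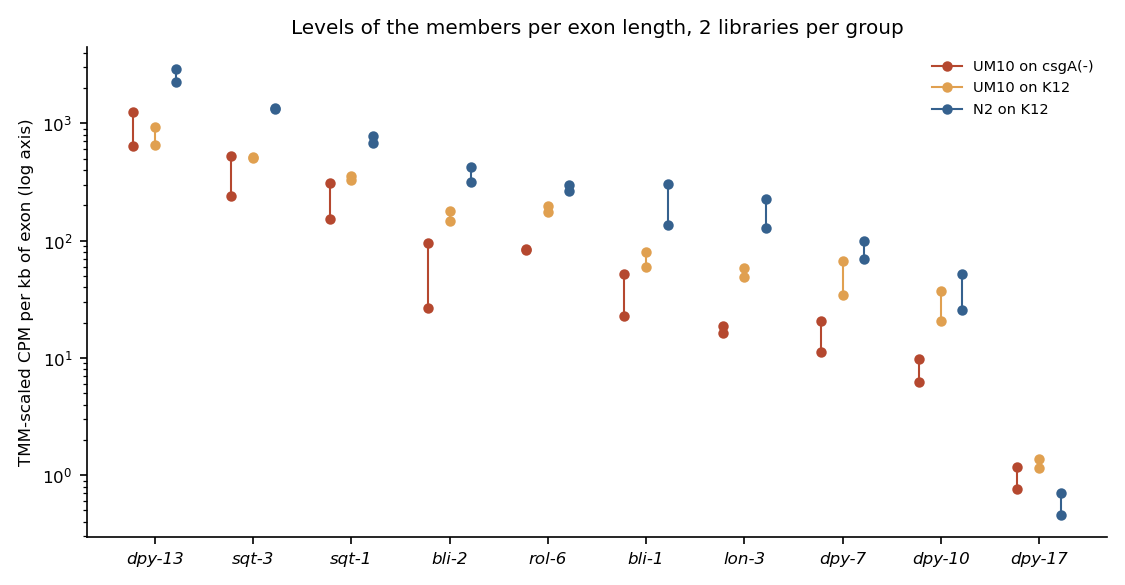
Level of each body-shape collagen per kb of exon (vertical log axis, TMM-scaled CPM per kb), ordered by mean level from dpy-13 to dpy-17. Each line joins the 2 libraries of a group: UM10 on csgA(-), UM10 on K12 and N2 on K12. Levels in N2 span from above 2000 CPM per kb for dpy-13 to below 1 for dpy-17.

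The other collagen genes with dpy, sqt, rol or bli names numbered 11, of which 10 were tested and dpy-14, with 25 counts over all libraries, was not. In all UM10 against N2, 8 of the 10 were called lower and 0 higher, where 5.25% of all genes were called lower and 5.07% higher. The median log2 fold change of the 10 was -1.61, beside the -1.57 of the genes described above. The number called was 0 without N2 replicate 1 or UM10 K12 replicate 1, 3 without UM10 csgA(-) replicate 2, 4 without UM10 K12 replicate 2 and 5 without UM10 csgA(-) replicate 1. Values were -2.24 (SE 0.49, edgeR adjusted p = 0.0201) for rol-1 and -1.91 (SE 0.55, adjusted p = 0.0490) for bli-6, whose mutants roll and blister. The furrow genes dpy-3 and dpy-8 had -1.81 (SE 0.38, edgeR adjusted p = 0.0166) and -1.75 (SE 0.39, adjusted p = 0.0210). The same list had 7 of 10 called lower in UM10 on csgA(-) against N2, or 3 and 2 without replicate 1 or 2 of UM10 on csgA(-). By edgeR, 0 were called in UM10 on K12 against N2 and 0 in the food comparison. Shares of all genes called lower were 5.11% in UM10 on csgA(-) against N2, 0.541% on K12 and 0% in the food comparison.

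Setting both lists together by the layer or phenotype each gene is known for, a grouping made after the values were seen, the furrow genes were alike in the food comparison. The 6 furrow genes dpy-2, dpy-3, dpy-7, dpy-8, dpy-9 and dpy-10 had log2 fold changes of -1.85 to -1.57 in UM10 on csgA(-) against UM10 on K12, each with libraries that did not overlap, and all 6 had an unadjusted p under 0.05, while edgeR called 0 of them. Of all genes, 19.0% were lower without overlap and 4.65% lower at that unadjusted p in this comparison, and nothing is read from the counts of a class formed after its values were seen. The 3 annulus genes dpy-4, dpy-5 and dpy-13 had 0.04 to 0.25 in the same comparison, with overlapping libraries. In UM10 on K12 against N2 the furrow genes were at -0.97 to -0.42 and the annulus genes at -1.69 to -1.41. The struts and blister genes bli-1, bli-2 and bli-6 lay at -1.42 to -0.07 in the food comparison, and the twist genes rol-6, sqt-1, sqt-2, rol-1 and rol-8 at -1.15 to -0.04. Differences between these classes were not tested.

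**Figure D4:**
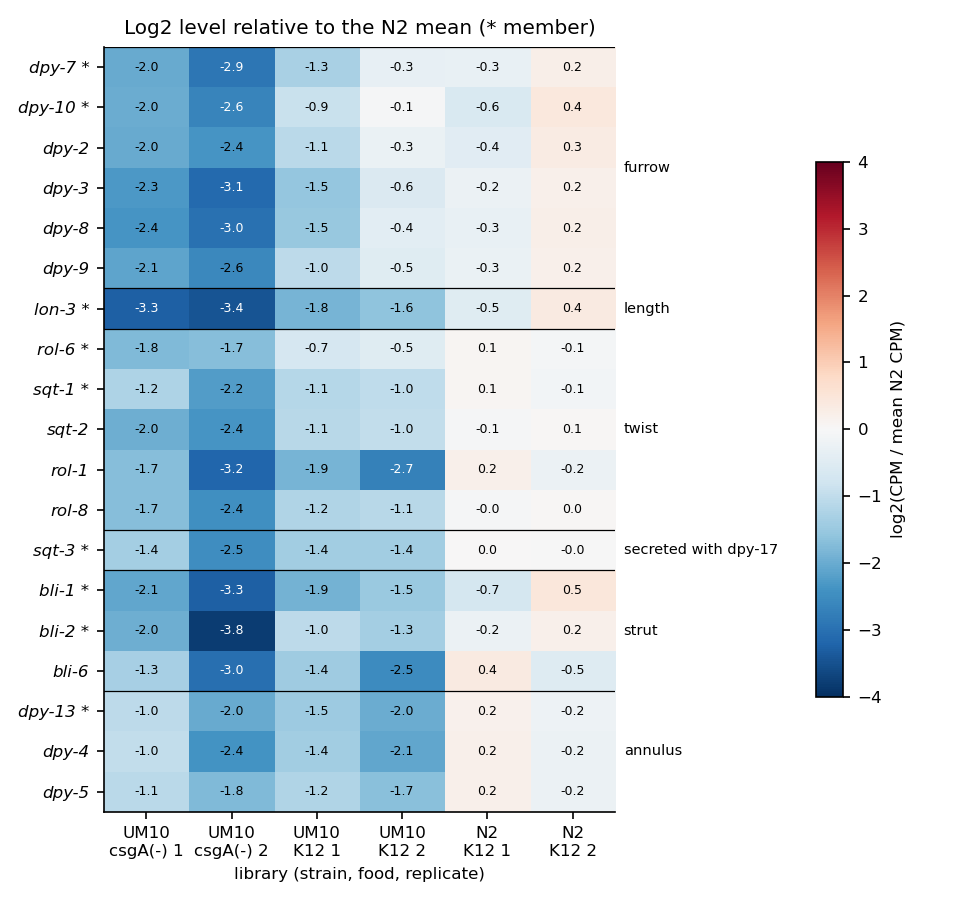
Level of 19 body-shape collagen genes in each library, as log2 of CPM over the mean CPM of N2 (colour scale and printed values), with libraries as columns and genes as rows grouped by layer or phenotype. Stars mark the genes described one by one, without dpy-17. The furrow rows are lighter in the UM10 libraries on K12 than in those on csgA(-), and the annulus rows overlap between the UM10 groups.

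A list of 7 collagens tied to the late larval and adult cuticle gave 5 called lower and 0 higher in all UM10 against N2. Of all genes, 5.25% were called lower there and 5.07% higher. The median log2 fold change of the list was -1.97. The number called was 0 without N2 replicate 1 or UM10 K12 replicate 2, 2 without UM10 K12 replicate 1 and 3 without either csgA(-) replicate. Those with the largest changes were col-138 at -2.04 (SE 0.44, edgeR adjusted p = 0.0188), col-63 at -2.02 (SE 0.50, adjusted p = 0.0312), col-49 at -1.99 (SE 0.42, adjusted p = 0.0179) and col-7 at -1.97 (SE 0.53, adjusted p = 0.0404). The adult-specific col-19 was at 1673 and 949 CPM in UM10 on csgA(-), 1143 and 1097 CPM in UM10 on K12 and 1487 and 572 CPM in N2. At these TMM-scaled levels its UM10 and N2 libraries overlapped, unlike those of the struts and of sqt-3. The libraries of col-62 overlapped too, with 188.8 and 50.24 CPM in N2 and 56.71 CPM in UM10 csgA(-) replicate 2. For col-7 the N2 libraries were far apart, at 190.8 and 49.11 CPM. The lower was close to UM10 csgA(-) replicate 2, at 47.57 CPM.

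Among 15 genes that modify, fold, cut or cross-link cuticle collagen, 4 were called lower and 0 higher in all UM10 against N2. Of all genes, 5.25% were called lower there and 5.07% higher. The median log2 fold change of the list was -0.87. With 1 library left out, 0 were called without N2 replicate 1 or UM10 K12 replicate 2, 1 without N2 replicate 2, UM10 K12 replicate 1 or UM10 csgA(-) replicate 1, and 3 without UM10 csgA(-) replicate 2. The peptidyl-prolyl isomerase gene fkb-3 was at -1.75 (SE 0.36, edgeR adjusted p = 0.0159), and the prolyl 4-hydroxylase subunit genes phy-2 and dpy-18 at -1.26 (SE 0.35, adjusted p = 0.0448) and -1.21 (SE 0.35, adjusted p = 0.0488). The thioredoxin-like dpy-11 was at -1.26 (SE 0.36, edgeR adjusted p = 0.0488). The only gene of this list called in UM10 on K12 against N2 was dpy-18, a call lost without any one of the 4 libraries compared, with 119.6 and 157 CPM in UM10 on csgA(-), 53.4 and 69.4 CPM in UM10 on K12 and 192 and 233 CPM in N2. Its UM10 groups were thus ordered the other way from those of lon-3, with the lower level on K12.

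The DBL-1 pathway, a TGF-beta pathway that sets body size and acts on lon-3, was represented by 12 genes. In all UM10 against N2, 1 was called lower and 0 higher, where 5.25% of all genes were called lower. That gene, lon-1, which the pathway represses and whose loss lengthens the animal, was at 11.8 and 21.5 CPM in UM10 on csgA(-), 38.1 and 35.4 CPM in UM10 on K12 and 75.8 and 74.7 CPM in N2, a log2 fold change of -1.60 (SE 0.33, edgeR adjusted p = 0.0159) in all UM10 against N2. Its 3 groups were separate steps in the same order as those of lon-3, and the call was lost without N2 replicate 1 or UM10 K12 replicate 1. The median of the pathway list was -0.07, near that of all genes. The count of 1 in 12 is near the share of all genes and is not read as a result about the list.

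Moulting genes were looked at because collagen transcription follows the moulting cycle. Of 10 regulators, 1 was called lower in all UM10 against N2, a count not read as a result about the list. Of all genes, 5.25% were called lower there, and 5.11% in UM10 on csgA(-) against N2. The called regulator was lin-42, the worm homologue of the clock gene period. It had 116.5 and 102 CPM in UM10 on csgA(-), 283 and 341 CPM in UM10 on K12 and 832 and 889 CPM in N2 (log2 fold change -2.22, SE 0.37, edgeR adjusted p = 0.00777). Its 3 groups were clear of each other. The zinc finger gene bed-3 was called as well in UM10 on csgA(-) against N2 (-1.34, SE 0.38, edgeR adjusted p = 0.0488), where the list had 2 calls, 1 without either N2 replicate and 0 without UM10 csgA(-) replicate 1.

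Of 11 genes for the moulting matrix and its enzymes, 2 were called lower and 0 higher in all UM10 against N2, with a median log2 fold change of -1.13. Of all genes, 5.25% were called lower there, and 5.11% in UM10 on csgA(-) against N2. The 2 called genes were mlt-10 at -2.58 (SE 0.48, edgeR adjusted p = 0.0105) and mlt-8 at -1.84 (SE 0.34, adjusted p = 0.0102), whose loss leaves animals trapped in the old cuticle. Against N2, UM10 on csgA(-) had 4 called lower, with mlt-11 at -2.50 (SE 0.68, edgeR adjusted p = 0.0438) and the astacin protease gene nas-37 at -2.04 (SE 0.44, adjusted p = 0.0209) added. In all UM10 the number was 1 without N2 replicate 1, N2 replicate 2 or UM10 K12 replicate 1 (3 without any other library), and in UM10 on csgA(-) 2 without N2 replicate 2 and 1 without UM10 csgA(-) replicate 1. Summed over the 11 genes the level was 626 and 437 CPM in UM10 on csgA(-), 710.1 and 1618 CPM in UM10 on K12 and 1513 and 2733 CPM in N2, with 1 UM10 library on K12 above the lower N2 library.

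Markers of other tissues were called in the oocyte and intestinal lists. Calls of markers were not followed with a library left out or under the other alternatives. The 4 oocyte markers oma-1, puf-5, rme-2 and cbd-1 were all called higher in all UM10 against N2 and in UM10 on csgA(-) against N2, and 2 of them in UM10 on K12 against N2, with median log2 fold changes of 2.35, 2.45 and 2.25. Their summed level was 2137 and 1488 CPM in UM10 on csgA(-), 1046 and 2115 CPM in UM10 on K12 and 179 and 468 CPM in N2. Every UM10 library was above both N2 libraries, the reverse of the collagen sum. Of all genes, 5.07% were called higher in all UM10, 3.95% in UM10 on csgA(-) and 2.20% in UM10 on K12 against N2. The 6 epidermal markers other than collagens, lin-26, che-14, ajm-1, dlg-1, vab-10 and let-413, had 0 called in any comparison and a median of -0.33 in all UM10 against N2. Their summed level was 900.4 and 1024 CPM in UM10 on csgA(-), 533 and 964 CPM in UM10 on K12 and 875 and 1145 CPM in N2, with groups that overlapped.

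**Figure D5:**
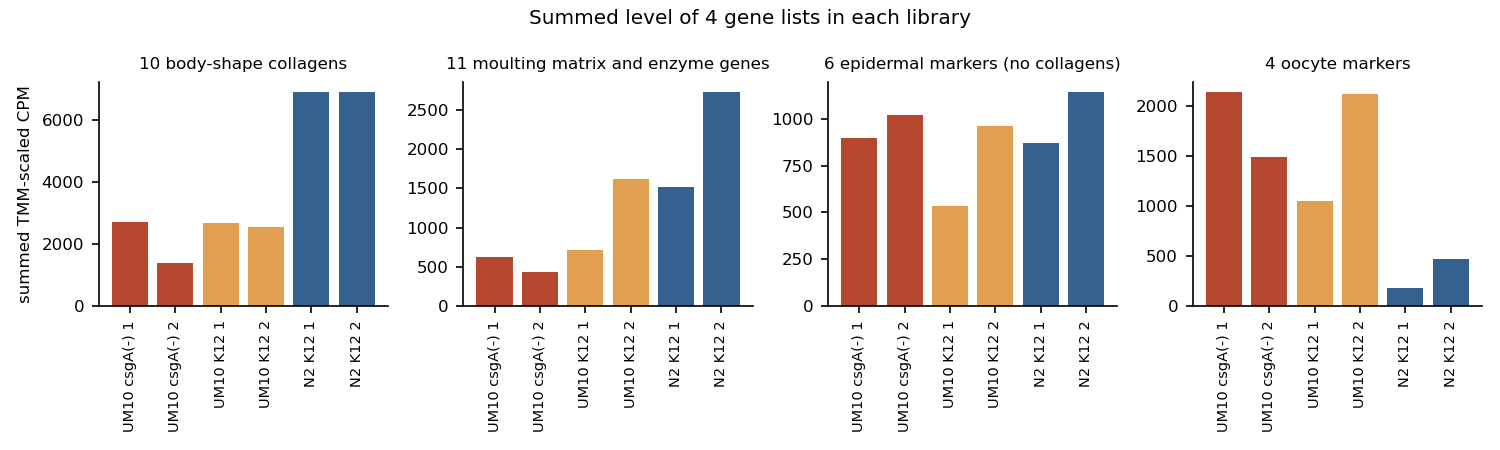
Summed TMM-scaled CPM (vertical axes from 0, each with its own range) of the 10 body-shape collagens, the 11 moulting matrix and enzyme genes, the 6 epidermal markers and the 4 oocyte markers in each library, with UM10 on csgA(-) and UM10 on K12 to the left of N2. The collagen sum is lower and the oocyte sum higher in every UM10 library than in both N2 libraries, and the epidermal sum overlaps between groups.

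Among the 4 intestinal markers, act-5 alone was called, lower in all UM10 and in UM10 on csgA(-) against N2. Of all genes, 5.25% and 5.11% were called lower in these comparisons. The summed level of the 4 was 571 and 697 CPM in UM10 on csgA(-), 1547 and 1848 CPM in UM10 on K12 and 2476 to 6845 CPM in N2. Most of the sum in N2 was act-5 itself, at 5538 and 1901 CPM. That gene was at 136.4 and 361.5 CPM in UM10 on csgA(-) and 1031 and 1292 CPM in UM10 on K12. No marker of muscle, neurons, pharynx, germline or sperm was called. Muscle sums were 8956 to 9310 CPM in UM10 on csgA(-), 4237 to 5380 CPM in UM10 on K12 and 8936 to 9321 CPM in N2. Pharyngeal sums were 37.9 to 109.8 CPM, 6.64 to 101.7 CPM and 50.9 to 302 CPM, germline sums 584 to 713 CPM, 382 to 580.5 CPM and 177 to 529 CPM, neuronal sums 68.4 to 82.8 CPM, 84.4 to 85.3 CPM and 79.4 to 90.8 CPM, and sperm sums 127 to 134 CPM, 52.7 to 86.8 CPM and 93.1 to 119.2 CPM in the same order of groups. The only marker at 0 in any library was the pharyngeal gene ceh-22, in UM10 K12 replicate 1. What part the levels of the tissue markers and of the moulting genes have in the collagen result was not tested.

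The genes most like the body-shape collagens in their pattern were found by Pearson's r, over the 6 libraries, with the mean of the scaled log2 levels of the 10 genes. Among 4557 candidate genes the highest were cuti-1 and F59B10.5, each with r = 0.994, grl-7 and ZC123.1, each with r = 0.992, and F18C5.5 with r = 0.991. The strain difference enters every one of these values, since the 6 points are 4 libraries of one strain and 2 of the other. Among genes of at least 50 CPM on average, grl-7, a ground-like gene, was followed by T16G12.1 (r = 0.989), the roller collagen gene rol-8 (r = 0.984), pqn-32 (r = 0.984) and the yolk protein gene vit-1 (r = 0.980).

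All 10 genes are annotated as protein-coding, with proteins of 301 to 356 residues, apart from bli-1 with 948. The widest exonic overlap is that of dpy-10, 780 of whose 1593 exon bases are shared with T14B4.19, a gene of the annotation that is not among the identifiers counted. The exons of sqt-3 share 144 bases with the non-coding RNA gene F23H12.13, which had 0 or 1 count in each library, and those of bli-1 share 7 bases with dph-2. The genes bli-2 and lon-3 lie within zyg-1 and ogdh-2 on the opposite strand and share no exonic base with them. Counts did not use strand, and with either stranded column 9 of the 10 genes remained lower in each comparison with N2.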

How the data were processed

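The authors deposited 1 table of raw read counts per gene for each library, in the layout that STAR writes, which holds unstranded counts and the counts of either strand. The submitters' processing notes name STAR 2.7.5, DESeq2 1.28.1 and the WBcel235 build, and per the labels' protocols poly-A RNA was selected. The unstranded counts were used, and summary lines (7.85% to 8.72% of all reads) were left out.

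Coordinates and symbols are from Ensembl release 115 of WBcel235. The listed markers opt-2 and msd-1 matched no single identifier and were not used. Genes were kept with filterByExpr of edgeR 4.0.16 in R 4.3.3 (minimum count 10 in 2 libraries, minimum total 15), which left 15331 genes with all 10 body-shape collagens among them. Libraries were scaled by TMM. Differences were tested with the quasi-likelihood test (glmQLFit, glmQLFTest) over all 6 libraries with 1 term per group and 3 residual degrees of freedom, adjusted by Benjamini-Hochberg over all genes tested and called under 0.05. The SE of a log2 fold change is its size divided by the root of its F statistic. In all UM10 against N2, the mean of both UM10 terms was set against N2. The test was run on simulated counts first. Alternatives included DESeq2 1.42.0, other scalings, no filter, either stranded column, a replicate block and each library left out.

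The members and gene lists were chosen with earlier results of these data known, so no list count is independent support for a direction. All members are named. Of each other list up to 4 genes called in a comparison are named, those with the largest absolute log2 fold change in all UM10 against N2. Genes most alike in pattern are the 5 with the highest r among genes of at least 10 CPM and an SD of log2 CPM of at least 0.5. The gene col-19 was named after its values were seen. Depth was 22657727 to 23532382 gene counts per library, and the fewest counts behind a body-shape collagen were the 7 to 41 per library of dpy-17.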

Additional observations from a re-analysis of the deposited data

Results flagged for a closer look

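The level of sqt-3 in replicate 2 of UM10 on csgA(-), 340.1 CPM, lay far from the other 3 UM10 libraries, at 719.8 to 741 CPM. Its gap to the nearest of them was 0.947 of the range of the 4 UM10 libraries, above the 95% critical value of Dixon's test. It was the only one among the 10 genes, and chance alone gives such a value in about 1 of 20 groups. The same library had the lowest level of the 4 for 8 of the other 9 genes, all but rol-6. The 4 libraries span both foods.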

How the results depend on the processing

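Under every alternative with groups from the titles, 9 of the 10 genes had negative log2 fold changes in UM10 on csgA(-) and in all UM10 against N2, while the number called varied. Other scalings kept 9 of 10 negative in all 4 comparisons. In all UM10 against N2, 5 genes were called with TMM, 9 with upper-quartile factors and 3 with no factors (an alternative chosen after seeing the data). With no filter 8 were called, with DESeq2 9 and with 1 term for all UM10 2. Of the 15331 genes tested, 805 were called lower with TMM, 999 with upper-quartile factors and 288 with no factors. DESeq2 called 9.16% of all genes lower. With no filter and with 1 UM10 term, calls over all genes were not split by direction. In UM10 on K12 against N2, 0 body-shape collagens were called, but 2 with no filter and 4 with DESeq2. In the food comparison 0 of them were called, but 3 with no filter and 3 with DESeq2. Counts over all genes were 421 in UM10 on K12 against N2, but 276 with upper-quartile factors, 1333 with no filter and 1181 with DESeq2. In the food comparison they were 0, but 30 with no factors, 470 with no filter, 242 with DESeq2, and 1 and 4 with the first and second stranded column. For UM10 on csgA(-) against N2 they were 1388, but 2705 with no filter and 2574 with DESeq2, and in all UM10 against N2 1582, but 2831, 2661 and, with 1 UM10 term, 807. The cause was not tested.

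The split of calls moved with the scaling. Of the calls in all UM10 against N2, 777 were higher and 805 lower with TMM, 583 and 999 with upper-quartile factors and 943 and 288 with no factors. The splits in UM10 on csgA(-) against N2 were 605 and 783, 452 and 920, and 704 and 380, and in UM10 on K12 against N2 338 and 83 with TMM and 548 and 50 with no factors. Without factors the median of all genes was 0.43, 0.48 and 0.45 in these comparisons, beside -1.10, -1.70 and -0.61 for the body-shape collagens.

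Replicate numbers were not used in the main test, and whether same-numbered libraries share a batch was not tested. Deviations from the group means correlated at 0.35 between N2 and UM10 on K12, -0.08 between N2 and UM10 on csgA(-) and 0.09 between the UM10 groups. With the number as a replicate block, 9 body-shape collagens were called in all UM10 against N2 and 1 in UM10 on K12 against N2, and the counts over all genes were 2418 and 845, with 2434 in UM10 on csgA(-) against N2 and 165 in the food comparison.

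With food from the file names, UM10 on K12 against N2 had 6 of the 10 genes and 1388 of all genes called, and UM10 on csgA(-) against N2 had 0 and 421. The food comparison then gave log2 fold changes of 1.15 for rol-6, 0.57 for sqt-1, 0.42 for sqt-3, 0.37 for dpy-17, 1.66 for dpy-7, 1.85 for dpy-10, -0.25 for dpy-13, 0.90 for bli-1, 1.42 for bli-2 and 1.63 for lon-3.

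Leaving out 1 library at a time, with the lone library of a group assumed to vary like the other groups, gave 1 to 4 body-shape collagens in all UM10 against N2 and 1 to 4 in UM10 on csgA(-) against N2, with 49 to 1774 and 157 to 1544 of all genes. For UM10 on K12 against N2 it gave 2 to 201 of all genes, and in the food comparison 0 to 78. The log2 fold change of dpy-10 in UM10 on K12 against N2 ranged from -0.92 to 0.19, and that of dpy-13 in the food comparison from -0.48 to 0.60. Among the other lists, over the alternatives with groups from the titles, the calls in all UM10 against N2 ranged from 0 to 10 for other body-shape collagens, 0 to 6 for late collagens, 0 to 6 for collagen processing and 0 to 7 for moulting matrix genes. The number of replicates, 2 a group, limits every call, and dpy-17 had 7 to 41 counts a library.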
